A study of Mus musculus with 19 samples.

Results

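The 6 genes Col4a1 to Col4a6 encode the α chains of collagen IV, and all of them were followed in mRNA-seq libraries of the mouse vomeronasal organ (VNO). They were taken by name and make up 6 of the 35596 genes that the deposited transcript tables cover. Whole VNOs of female mice at postnatal day 21 (P21) gave 18 grouped libraries, 3 in each of 6 groups. In the AP-2εCre line, which recombines in immature basal vomeronasal sensory neurons (VSNs), the groups were Smad4 flox/flox controls without Cre (flox), AP-2εCre +/- heterozygotes (Het) and AP-2εCre +/- Smad4 flox/flox conditional knockouts (cKO). In the OMPCre line, which recombines in mature apical and basal VSNs, they were the matching flox, OMPCre +/- (Het) and OMPCre +/- Smad4 flox/flox (cKO) animals. The flox animals are called Wild Type in the sample labels, and the series' design text gives them as Smad4 flox/flox. Cre sits in the Tfap2e or the Omp locus, so Het and cKO animals of a line also carry 1 altered copy of that gene and the flox controls do not. The comparison of cKO with both kinds of control asks whether loss of Smad4, the shared mediator of BMP and TGF-β signaling, in VSNs goes with a change in collagen IV mRNA of the whole organ.

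Collagen IV is the network-forming collagen of basement membranes. Its chains assemble as trimers of α1α1α2, α3α4α5 or α5α5α6, the first of which is found in nearly all basement membranes, including those of vessels. The genes lie in head-to-head pairs, with the members of a pair transcribed away from each other. Basement membrane at the base of the vomeronasal epithelium and around its vessels is discussed in the field as a place that can hold BMP close to basal VSNs. In a whole organ, fewer cells of a type and less RNA per cell cannot be told apart, and collagen IV of neurons cannot be told apart from that of vessels, glia and connective tissue.

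The start regions of the 3 pairs are shown because the members of a pair were compared with each other throughout (GRCm38, RefSeq windows, positions counted from 1). On chromosome 8 the first exons of Col4a1 (minus strand, starting at 11312826) and Col4a2 (plus strand, starting at 11312805) overlap by 22 bases, at chr8:11312805-11312826, given on the plus strand. Motifs are not marked in this stretch.
Col4a1/Col4a2 overlap: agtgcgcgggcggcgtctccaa
On chromosome 1 the starts of Col4a4 (minus strand) and Col4a3 (plus strand) are separated by 71 bases, chr1:82586850-82586920, given on the plus strand and free of annotated exons.
Between Col4a4 and Col4a3: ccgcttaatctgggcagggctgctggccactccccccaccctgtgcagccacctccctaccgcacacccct
On chromosome X the starts of Col4a6 (minus strand) and Col4a5 (plus strand) lie further apart, with 1308 bases between them. The stretches just before each start, chrX:141475169-141475384 on the plus strand and chrX:141474077-141474326 on the minus strand, overlap no annotated exon. Capitals mark the motifs CCAAT and CCGCCC, the latter being the reverse complement of GGGCGG.
Upstream of Col4a5: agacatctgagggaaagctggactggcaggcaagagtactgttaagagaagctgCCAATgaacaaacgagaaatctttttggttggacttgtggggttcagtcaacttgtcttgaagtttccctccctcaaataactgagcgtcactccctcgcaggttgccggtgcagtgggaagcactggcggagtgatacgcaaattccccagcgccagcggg
Upstream of Col4a6: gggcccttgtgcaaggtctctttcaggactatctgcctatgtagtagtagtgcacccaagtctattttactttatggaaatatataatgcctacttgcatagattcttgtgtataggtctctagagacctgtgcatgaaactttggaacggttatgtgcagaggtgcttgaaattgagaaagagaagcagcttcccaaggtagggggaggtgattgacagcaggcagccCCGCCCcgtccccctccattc

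RefSeq windows of 300 bases around the gene start were found for 5 members, and Col4a3 had no entry. The windows of Col4a1 and Col4a2 hold 74.0% and 73.7% G and C, that of Col4a4 63.3%, and those of Col4a5 and Col4a6 52.7% and 48.3%, beside a median of 52.7% over 32851 windows. These windows were searched on both strands for 7 short motifs. The palindromic SMAD motif GTCTAGAC, found in 0.213% of all windows, and CAGACA, found in 21.0%, were in none of the 5. Neither were GGAGCC (30.8% of all windows) and the TATA motif TATAAA (13.6%). GGCGCC, a GC-rich motif known for BMP-activated SMADs, occurred 1 time each in the windows of Col4a1 and Col4a4 and in 11.9% of all windows. GGGCGG, the core of the Sp1 motif, occurred 3 times at Col4a2 and 1 time each at Col4a1, Col4a5 and Col4a6, against 35.7% of windows with at least 1. The match at Col4a1 is also 1 of the 3 at Col4a2. It lies in the 22-base overlap of the first exons, which both windows include. CCAAT occurred 1 time each at Col4a1, Col4a2 and Col4a5 and in 37.4% of windows. Whether the CCAAT of Col4a1 and that of Col4a2 are the same site was not checked. A match here is a match of letters only.

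Libraries held 43385516 to 134042284 estimated counts, and levels are given as CPM, counts scaled to a library total of 1000000 after TMM normalization. Smad4 itself was measured first. In the OMPCre line it was 54.4 to 62.5 CPM in the cKO and 64.8 to 83.9 CPM in the controls, with no overlap (log2 fold change -0.35 ± 0.09 SE), an edgeR difference whose adjusted p was 0.909. In the AP-2εCre line Smad4 was 33.8 to 66.5 CPM in the cKO and 39.6 to 81.0 CPM in the controls, and the ranges overlapped. Counts are summed over transcripts and do not separate the floxed exon. Neuronal identity was present in all libraries, with Omp at 225 to 549 CPM and Trpc2, the transduction channel of VSNs, at 50.1 to 138 CPM. Omp is the locus that carries OMPCre. It was at 238 to 287 CPM in the OMPCre cKO and at 449 to 549 CPM in the AP-2εCre cKO. Other cells of the organ were represented too, by endothelial Cdh5 (29.2 to 44.0 CPM), Pdgfrb (110.5 to 191 CPM) and Rgs5 (140.3 to 269 CPM) of mural cells, and Col1a1 (6772 to 18900 CPM) and Dcn (228 to 492 CPM) of fibroblasts. The 3 markers of main olfactory epithelium (Gnal, Cnga2 and Ano2) summed to 90.5 to 193 CPM. In the OMPCre line they summed to 174 to 193 CPM in Het, 90.5 to 112 CPM in flox and 91.7 to 118 CPM in cKO libraries. The animals are named in 2 ways, by a letter with a number (2 libraries in each group, 12 in all) or by the name of the line with a number (1 in each group, 6 in all), and the libraries differed along this split.

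Col4a1 and Col4a2, which encode the α1 and α2 chains, were the leading collagen IV genes of the VNO. Over the 12 control libraries Col4a1 was 333 ± 60.2 CPM (SD) and Col4a2 296 ± 55.4 CPM. Col4a5 followed with 41.5 ± 9.77 CPM and Col4a6 with 19.7 ± 5.62 CPM, and these encode the α5 and α6 chains. Col4a4 was at 3.85 ± 0.425 CPM and Col4a3 at 2.85 ± 1.09 CPM, the partners of α5 in the trimer best known from the kidney glomerulus. All 6 genes passed the filter on low counts in every comparison. The least covered, Col4a3, had 60 to 309 counts per library, and Col4a4 had 156 to 295.

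Levels of different genes were compared per length. By TPM (the deposited unit, which is scaled by transcript length to a library sum of 1000000 and was summed over the transcripts of a gene) the order in the 12 controls was Col4a1, Col4a2, Col4a5, Col4a6, Col4a4 and Col4a3. The pairs and the direction of each step were taken from the same 12 libraries in which they were then tested. Each of the first 4 steps ran the same way in 12 of 12 libraries. The steps were 3.33-fold from Col4a2 to Col4a1, 6.63-fold from Col4a5 to Col4a2, 2.42-fold from Col4a6 to Col4a5 and 7.64-fold from Col4a4 to Col4a6, each with a p of 0.00061 after adjustment over the 5 pairs (exact two-sided sign-flip test, n = 12, smallest p allowed 0.000488 before adjustment). Col4a4 and Col4a3 did not differ beyond their spread. Their mean log2 TPM difference was 0.09 ± 0.47 (SD), positive in 7 of 12 libraries, with p = 0.51 in the same exact test.

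The first step depended on the measure of length. Col4a1 has 8 annotated transcripts, and the TPM-weighted mean length was 2.07 kb beside 6.06 kb for Col4a2, since short fragments take few counts and a large share of TPM. Per kb of the longest coding transcript (6.37 effective kb for Col4a1-201 and 6.20 kb for Col4a2-201, a measure added after the data were seen), Col4a1 exceeded Col4a2 by only 1.10-fold, in 11 of 12 libraries (adjusted p = 0.00122, exact sign-flip test, n = 12). The other steps were 7.28-fold, 2.16-fold and 7.67-fold on this measure. On it Col4a1 and Col4a2 made up 47.4% ± 1.22 and 43.2% ± 1.29 (SD) of the summed collagen IV level in controls, Col4a5 5.97% ± 0.791, Col4a6 2.77% ± 0.415, Col4a4 0.362% ± 0.0629 and Col4a3 0.321% ± 0.139.

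**Figure D1:**
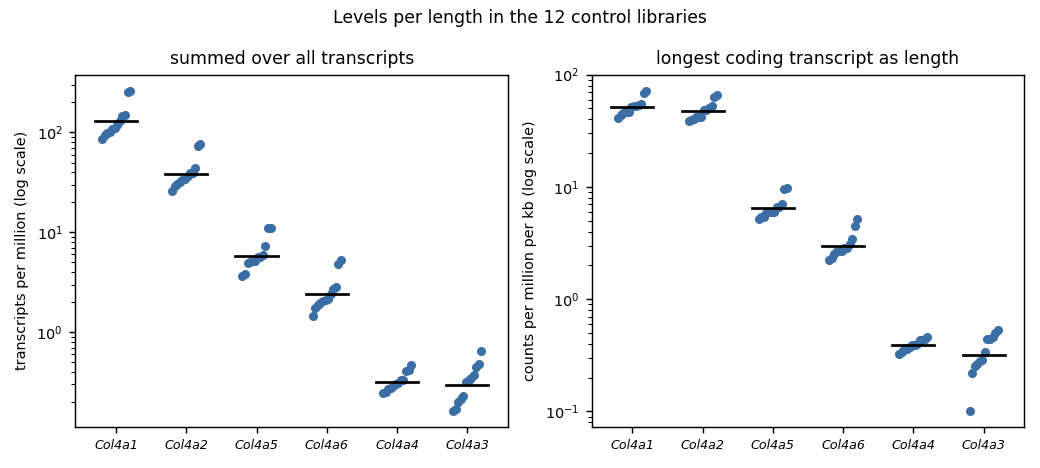
Level per length of each collagen IV gene in the 12 control libraries (points) with the geometric mean (bar), as summed TPM on the left and as CPM per kb of the longest coding transcript on the right, both on log axes. The gap between Col4a1 and Col4a2 is 3.33-fold on the left and 1.10-fold on the right, and Col4a4 and Col4a3 overlap on both sides.

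In the AP-2εCre line, none of the 6 genes passed the test between cKO and controls. In this comparison 7 of 18495 genes were called at an adjusted p under 0.05 (0.0378%), and the collagen IV genes were not among them. None of the 6 separated the groups without overlap either, which 5.06% of all genes tested did. The cKO libraries held Col4a1 at 309, 342 and 383 CPM, the flox controls at 297, 333 and 350 CPM and the Het controls at 259, 288 and 332 CPM. Only the highest cKO library lay above all 6 controls. The fitted log2 fold change was 0.16 ± 0.11 (SE), with a 95% interval of -0.09 to 0.40 and an adjusted p of 0.695 (edgeR quasi-likelihood test, as for all adjusted p below).

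Col4a2 in the same line was at 293, 300.3 and 350 CPM in cKO, 262, 299.9 and 303 CPM in flox and 243, 249 and 324 CPM in Het libraries. The groups overlapped, and the log2 fold change of 0.17 ± 0.11 (interval -0.08 to 0.42) had an adjusted p of 0.669. By limma on log2(TPM + 1), where the median of all genes was 0.205, Col4a1 and Col4a2 were at 0.55 and 0.52 without passing (adjusted p = 0.305 and 0.272).

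Col4a5 stood at 29.0, 29.8 and 61.9 CPM in the AP-2εCre cKO, against 34.1 to 44.0 CPM in flox and 34.1 to 41.2 CPM in Het libraries. The cKO libraries thus lay on both sides of the controls, 2 below all 6 and 1 above. Col4a6 was at 14.2, 16.8 and 30.0 CPM in cKO and 14.3 to 19.6 CPM in controls, with 1 cKO library below all 6, 1 among them and 1 above. In both genes the high library was cKO replicate 1, the line-named animal of that group. The fitted log2 fold changes were 0.09 ± 0.22 for Col4a5 (adjusted p = 0.945) and 0.24 ± 0.21 for Col4a6 (adjusted p = 0.770). Among letter-named animals alone they were -0.35 and -0.17, with adjusted p of 0.588 and 0.695, so the direction rested on that library.

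Col4a3 was at 1.41, 2.04 and 4.78 CPM in the AP-2εCre cKO and at 1.84 to 4.41 CPM in its controls. Col4a4 was at 1.48, 2.96 and 4.56 CPM in the cKO and at 3.34 to 4.50 CPM in the controls, with 2 cKO libraries below and 1 above all 6 controls. The same line-named library was again the highest. The log2 fold changes were -0.33 ± 0.40 and -0.35 ± 0.30, with adjusted p of 0.849 and 0.761.

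**Figure D2:**
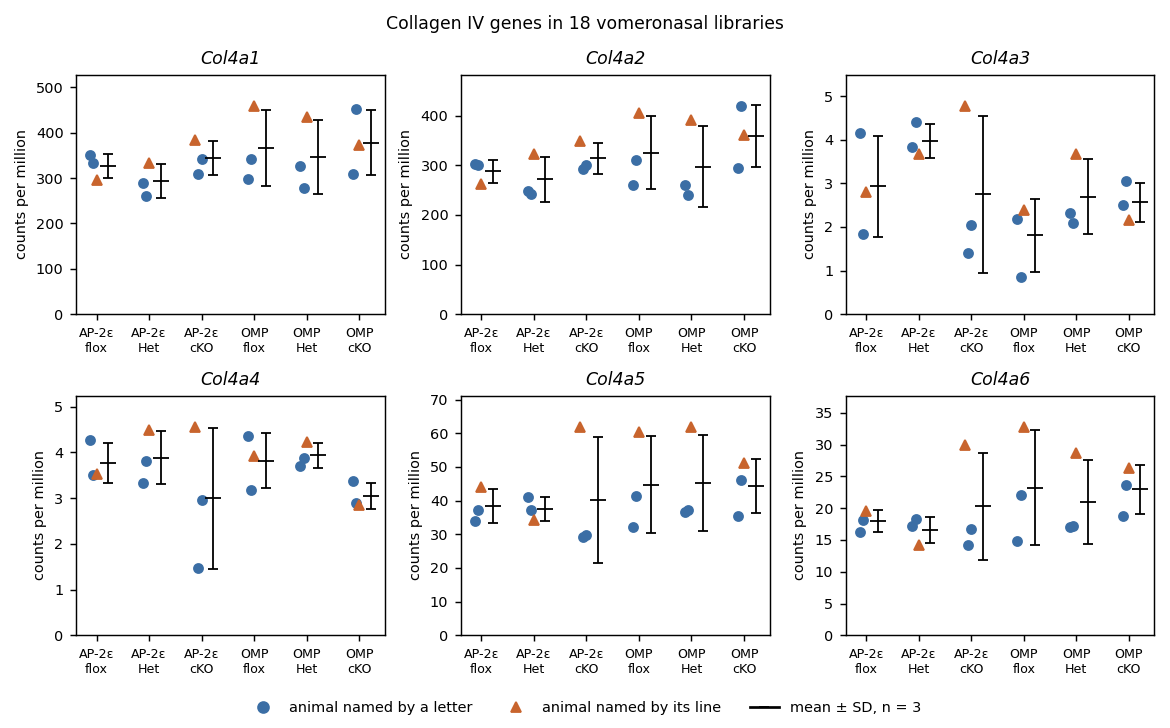
CPM of each collagen IV gene in all 18 libraries, by group (axes start at 0). Circles are letter-named and triangles line-named animals, and bars give the mean ± SD of 3 libraries. The 4 highest Col4a5 values, 51.3 to 61.9 CPM, are all triangles.

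In the OMPCre line, none of the collagen IV genes passed the test between cKO and controls. edgeR called 0 of 18623 genes here (0%), with 735 at an unadjusted p under 0.05 (3.95%), while DESeq2 called 46 genes and none of the 6. None of the 6 separated cKO from controls without overlap, which 2.35% of all genes did. Col4a1 was at 309, 372 and 452 CPM in cKO, 298, 341 and 459 CPM in flox and 277, 327 and 435 CPM in Het libraries. Col4a2 was at 295, 361 and 420.1 CPM in cKO, 261, 310.1 and 405 CPM in flox and 240.0, 261 and 391 CPM in Het libraries. In each of these groups the values spread over most of the range of the line. The log2 fold changes were 0.08 ± 0.18 (interval -0.33 to 0.49) and 0.20 ± 0.19 (interval -0.22 to 0.63).

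Col4a5 was at 35.5, 46.1 and 51.3 CPM in the OMPCre cKO and at 32.2 to 61.8 CPM in the controls. Its log2 fold change was -0.02 ± 0.23, with an interval of -0.53 to 0.48. Col4a6 was at 18.8, 23.7 and 26.4 CPM in the cKO with controls at 14.8 to 32.8 CPM, and the fitted difference was 0.05 ± 0.25 on the log2 scale. The cKO libraries of both genes lay within the range of the controls. Col4a3 was at 2.16, 2.50 and 3.04 CPM in the cKO and at 0.842 to 3.67 CPM in the controls, also within their range (0.19 ± 0.37).

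Col4a4 was the member nearest to a difference in the OMPCre line. It was at 2.86, 2.90 and 3.37 CPM in the cKO, at 3.17, 3.92 and 4.36 CPM in flox and at 3.71, 3.87 and 4.24 CPM in Het libraries. The groups met only where the highest cKO library exceeded the lowest flox library. The log2 fold change was -0.35 ± 0.17 (interval -0.72 to 0.02), with an unadjusted p of 0.063 and an adjusted p of 1.0 in edgeR. An exact two-sided permutation test of the single gene over the 84 splits gave p = 0.024, where 0.012 is the smallest p allowed, and this is 1 of 30 such tests, unadjusted. Counts of Col4a4 were 156 to 295 per library.

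For no member did the cKO effects in the AP-2εCre and OMPCre lines pass the test of their difference, the interaction term. Over 19465 genes edgeR called 0 (0%), with 956 at an unadjusted p under 0.05 (4.91%) and 20 calls by DESeq2. Differences of log2 fold changes (OMPCre minus AP-2εCre) ran from -0.18 ± 0.35 for Col4a6 to 0.53 ± 0.56 for Col4a3, each with an adjusted p of 1.0. For Col4a1 the interval of the difference was -0.54 to 0.40 and for Col4a2 -0.45 to 0.52.

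Neither did the presence of Cre without the floxed alleles go with a called change. Between Het and flox controls edgeR called 4 of 17827 genes in the AP-2εCre line (0.0224%) and 8 of 18124 in the OMPCre line (0.0441%), with 0 of 6 collagen IV genes in each. An unadjusted p under 0.05 was reached by 5.18% and 5.54% of genes. Log2 fold changes of the members lay between -0.15 for Col4a1 and 0.45 for Col4a3 in the AP-2εCre line and between -0.15 for Col4a6 and 0.58 for Col4a3 in the OMPCre line. With 3 libraries against 3, the exact permutation test of a single gene cannot go below 0.1, and its lowest value here was 0.2.

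Controls of the OMPCre line were also set against controls of the AP-2εCre line. The groups differ in breeding line and in the Cre allele of the Het animals. edgeR called 18 of 18522 genes (0.0972%) and 0 of 6 members. Col4a3 was at 2.25 CPM in OMPCre and 3.45 CPM in AP-2εCre controls, with a log2 fold change of -0.62 ± 0.28, an unadjusted p of 0.046 and an adjusted p of 0.760. An unadjusted p under 0.05 was reached by 6.5% of all genes, and by 1 of the 6 members. Col4a6 was at 22.1 against 17.3 CPM (0.36 ± 0.19, adjusted p = 0.793), and its 2 highest control values were those of the line-named OMPCre controls, at 28.7 and 32.8 CPM.

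**Figure D3:**
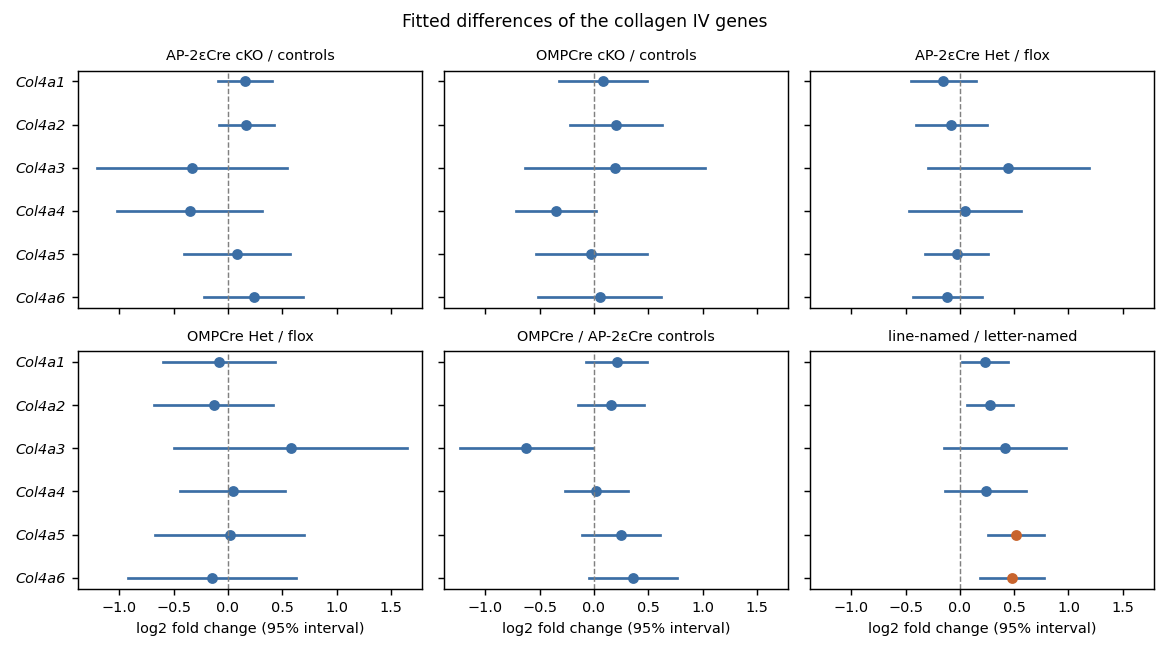
Fitted log2 fold change (point) and 95% interval (line) of each collagen IV gene in 6 comparisons; orange points have an adjusted p under 0.05 by edgeR. Intervals of the first 4 panels all cross 0, and the orange points are Col4a5 and Col4a6 between line-named and letter-named animals.

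Along the form of the animal name, which was balanced over the groups and tested after the data were seen, 2 members passed the test. Col4a5 was 52.3 ± 11.4 CPM (SD, n = 6) in line-named and 36.5 ± 4.91 CPM (n = 12) in letter-named libraries, with a log2 fold change of 0.51 ± 0.12 (SE) and an adjusted p of 0.0144. Col4a6 was 25.3 ± 6.99 against 17.9 ± 2.71 CPM (0.48 ± 0.14, adjusted p = 0.0348). These 2 of 6 members were called, both higher in line-named libraries, where 12.1% of 19465 genes were called and 4.73% were called higher. Both calls rested on few libraries. With each library left out in turn, Col4a5 was called in 15 of 18 cases, with log2 fold changes from 0.39 to 0.64, and not without AP-2εCre cKO replicate 1, OMPCre flox replicate 3 or OMPCre Het replicate 3, all of them line-named (adjusted p up to 0.0575). Col4a6 was called in 8 of 18 cases, with log2 fold changes from 0.38 to 0.62 and adjusted p up to 0.129. In the OMPCre line alone both were called (0.60 and 0.64, adjusted p = 0.0206 and 0.0332). In the AP-2εCre line alone neither was (0.43 and 0.32, adjusted p = 0.462 and 0.615), and in the 12 controls alone neither was (0.41 and 0.40, adjusted p = 0.175 and 0.292), and the difference between the lines was not tested. The 2 AP-2εCre control animals named by their line had lower values, with Col4a5 at 34.1 and 44.0 CPM where the other 4 line-named libraries lay between 51.3 and 61.9 CPM. Col4a1 and Col4a2 were at 379.8 and 349 CPM in line-named and 324 and 289 CPM in letter-named libraries (log2 fold changes 0.23 ± 0.10 and 0.28 ± 0.10, adjusted p = 0.144 and 0.0807). DESeq2 called Col4a2 as well (0.28, adjusted p = 0.0302). By limma on log2(TPM + 1), which moved the median of all genes to 0.265, 5 of 6 members were called, and 95.7% of all calls were higher in line-named libraries where edgeR gave 39.1%. What the form of the name stands for is not given in the sources used here, and other comparisons were repeated with it as a covariate and in letter-named animals alone.

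Cell type markers were read along the same split. The 7 endothelial markers other than Pecam1 summed to 209 to 258 CPM in letter-named and 196 to 259 CPM in line-named libraries, with 4 of 8 positive log2 fold changes for line-named libraries (Pecam1 included) and 2 of the 8 called lower, Pecam1 and Emcn. The 8 mural markers summed to 1628 to 3052 CPM (median 1835) in letter-named and 1340 to 2609 CPM (median 2380) in line-named libraries. Of these 8, 6 were positive (median 0.13), and Notch3, a receptor of mural cells, was called higher, at 60.4 to 66.7 CPM in line-named and 45.1 to 61.7 CPM in letter-named libraries. Summed Pecam1 counts, 77.2 to 1367 CPM, came largely from a retained-intron transcript, which held 78.6% to 96.8% of them in letter-named and 45.8% to 76.2% in line-named libraries. Without it Pecam1 was at 34.3 to 49.1 CPM in all 18 libraries. All endothelial and mural markers were above 0 in every library. The muscle markers summed to 75.5 CPM in OMPCre flox replicate 3, which also had the highest Col4a1 and Col4a6, and to at most 5.22 CPM in the other libraries. The 3 markers of basal epithelium (Krt5, Krt14 and Trp63) summed to 907 CPM in that library and to at most 378 CPM in letter-named ones. Among blood markers 1 of 3 was called lower in line-named libraries (Hbb-bs, log2 fold change -0.60, median of the list -0.60), and among glial markers 1 of 5 (Fabp7, -0.58, median 0.09). Of the 4 markers of cartilage and bone 0 were positive and 0 called, with a median of -0.51. The part of these markers in the collagen IV levels was not tested.

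Members of a head-to-head pair varied together across libraries. Over 18 libraries, log2 CPM of Col4a1 and Col4a2 correlated with Pearson's r = 0.96 and Spearman's rho = 0.94, and Col4a5 and Col4a6 with r = 0.95 and rho = 0.93 (permutation p = 1e-05 for each, the smallest that 100000 permutations can give, 7.5e-05 after adjustment over 15 pairs). Without the 2 libraries farthest from the median of the first gene, r was 0.93 and 0.92. Both relations were present within each line, with r = 0.93 and 0.92 in the AP-2εCre line and 0.96 and 0.97 in the OMPCre line (n = 9 each, adjusted permutation p from 0.00075 to 0.0161). They were also present among the 12 letter-named libraries, at r = 0.94 and 0.83 (adjusted permutation p = 0.00075 and 0.00855). Without the 2 farthest libraries, Col4a5 with Col4a6 fell to 0.61 in the AP-2εCre line and to 0.63 among letter-named libraries, and Col4a1 with Col4a2 to 0.86 and 0.83. Among the 6 line-named libraries r was 0.96 and 0.98 (adjusted permutation p = 0.039 and 0.0525).

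Col4a3 and Col4a4, the weakly expressed pair, gave r = 0.55 and rho = 0.56 (permutation p = 0.0193 and 0.0183, adjusted 0.0413 and 0.0629). The relation was 0.80 in the AP-2εCre line (adjusted permutation p = 0.0162) and 0.27 in the OMPCre line (0.663), and 0.43 among letter-named libraries (0.50). It therefore did not pass within the OMPCre line or within the letter-named animals. On deviations from the group means it was r = 0.76 and rho = 0.68 over 18 libraries (adjusted permutation p = 0.0016 and 0.0125).

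The relations of Col4a1 and Col4a2 with Col4a5 and Col4a6 had a lower r than those within these 2 pairs and did not pass among letter-named libraries alone. They had r from 0.63 to 0.74 over 18 libraries (adjusted permutation p from 0.0032 to 0.0127), while their rho of 0.45 to 0.55 did not pass adjustment. On deviations from the group means r was 0.66 to 0.67 and rho 0.61 to 0.62, and these passed (adjusted permutation p = 0.006107 and 0.01725). On log2 TPM r was 0.86 to 0.92 and rho 0.62 to 0.74, and these passed too (highest adjusted permutation p 0.00015 and 0.01798). Among the 12 letter-named libraries r fell to between 0.30 and 0.59, with adjusted permutation p of at least 0.242. In the OMPCre line r was 0.85 to 0.90 and in the AP-2εCre line 0.18 to 0.35. Col4a1 and Col4a2 had r between -0.01 and 0.08 with Col4a3 and Col4a4, between 0.25 and 0.46 on deviations from the group means (0 of 4 passing adjustment) and between 0.40 and 0.57 on log2 TPM (3 of 4 passing, adjusted permutation p of 0.01748, 0.03453 and 0.04875). By rho on log2 TPM only Col4a1 with Col4a4 passed (adjusted permutation p = 0.03604). Col4a3 and Col4a4 had r between 0.14 and 0.34 with Col4a5 and Col4a6, with 0 of 4 passing. On deviations from the group means these were 0.37 to 0.56, and Col4a3 with Col4a5 passed by r (adjusted permutation p = 0.02931) but not by rho (0.1133). On log2 TPM they were 0.54 to 0.64, and 4 of 4 passed by r (adjusted permutation p from 0.007179 to 0.02581). By rho none of these passed (adjusted permutation p from 0.05493 to 0.082). Per kb of the longest coding transcript, the ratio of Col4a1 to Col4a2 was 0.999 to 1.22 in the 18 libraries (2.66 to 4.11 by TPM) and that of Col4a5 to Col4a6 was 1.81 to 2.44, whereas the ratio of Col4a2 to Col4a5 ran from 5.73 to 10.2.

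**Figure D4:**
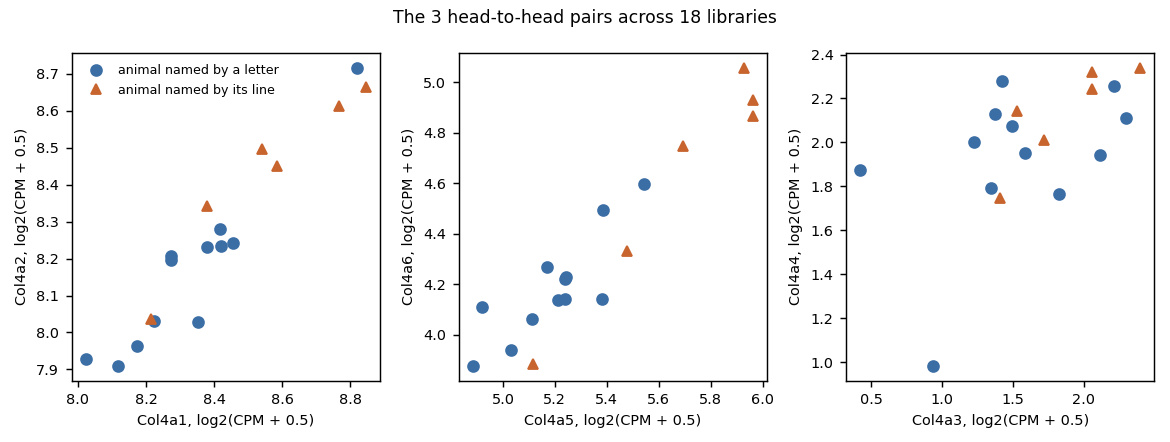
Log2(CPM + 0.5) of the 2 members of each head-to-head pair in 18 libraries, with circles for letter-named and triangles for line-named animals. Points lie close to a line for Col4a1 with Col4a2 (r = 0.96) and for Col4a5 with Col4a6 (r = 0.95) and scatter for Col4a3 with Col4a4 (r = 0.55).

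Each member was ranked against the 15804 genes with a mean of at least 1 CPM by Pearson's r of log2 CPM over the 18 libraries. The genes named are those with the highest r, and how high r runs by such a selection alone was not tested. Col4a2 came first for Col4a1 and Col4a1 first for Col4a2. The next for Col4a1 were Smtn (r = 0.88), Itpk1 (0.87), Arhgef7 (0.86) and Tpm2 (0.85), and for Col4a2 they were Itpk1 (0.88), Col5a3 (0.88), Eng (0.87) and Itih5 (0.87). Smtn and Tpm2 encode proteins of the smooth muscle contractile apparatus, and Eng encodes endoglin, a co-receptor for TGF-β and BMP ligands on endothelium.

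Col4a6 came first for Col4a5, followed by Prkg1 (r = 0.92), Purb (0.91), Synm (0.90) and Acap2 (0.90). For Col4a6 the first was Prkg1 (0.96), the cGMP-dependent kinase of smooth muscle, ahead of Col4a5 (0.95), Synm (0.91), Ppp1r12a (0.91) and Wnk4 (0.91). Among the letter-named libraries alone, Prkg1 had r = 0.92 with Col4a6 and 0.78 with Col4a5, Synm had 0.77 with Col4a6, and Acap2 had 0.57 with Col4a5. Col4a4 ranked 184 for Col4a3, and Col4a3 ranked 248 for Col4a4. The 5 first genes were Gpr137b-ps, Tlr7, Tmem87b, Zfp953 and Il1rl1 for Col4a3 (r = 0.75 to 0.83) and Gm49322, Ccdc127, Ddi2, Gm7666 and Mtmr6 for Col4a4 (0.77 to 0.81).

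The deposited values also divide each gene among its transcripts. Col4a2-201, Col4a4-201 and Col4a6-201 held at least 97.8% of their gene's counts in every library, and Col4a3-201 at least 90.02%. For Col4a1, the annotated full-length coding transcript Col4a1-201 held a median of 14.4% (range 0% to 30.1%), and Col4a1-208, annotated for nonsense-mediated decay, a median of 68.1% (55.9% to 82.7%). Col4a1-208 differs by an extra exon of 17 bases at chr8:11204536-11204552, and it also has a shorter first exon and another end, so the division between these transcripts does not rest on the extra exon alone. The junction is shown to make that difference visible, on the gene's strand with 15 bases of the neighbouring exons on each side and the extra exon in capitals.
Col4a1-208: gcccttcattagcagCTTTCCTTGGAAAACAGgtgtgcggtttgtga
Col4a1-201: gcccttcattagcaggtgtgcggtttgtga
The length of 17 bases is not a multiple of 3, so the extra exon shifts the reading frame. Reads over this junction were not counted here, and the shares are salmon's estimates.

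Shares of transcripts were also read by the form of the animal name, without a test. Col4a1-201 held 8.90% to 30.1% of Col4a1 counts in letter-named and 0% to 14.6% in line-named libraries, ranges that overlap. The retained-intron transcript Col4a1-202 had 228 to 550.2 estimated counts in each of the 6 line-named libraries and at most 16.9 in the 12 letter-named ones, without overlap. Its share of Col4a1 stayed at or under 2.64%. For Col4a5, Col4a5-201 held 31.2% to 89.3% of counts in letter-named and 74.0% to 88.0% in line-named libraries, the second range lying within the first.

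**Figure D5:**
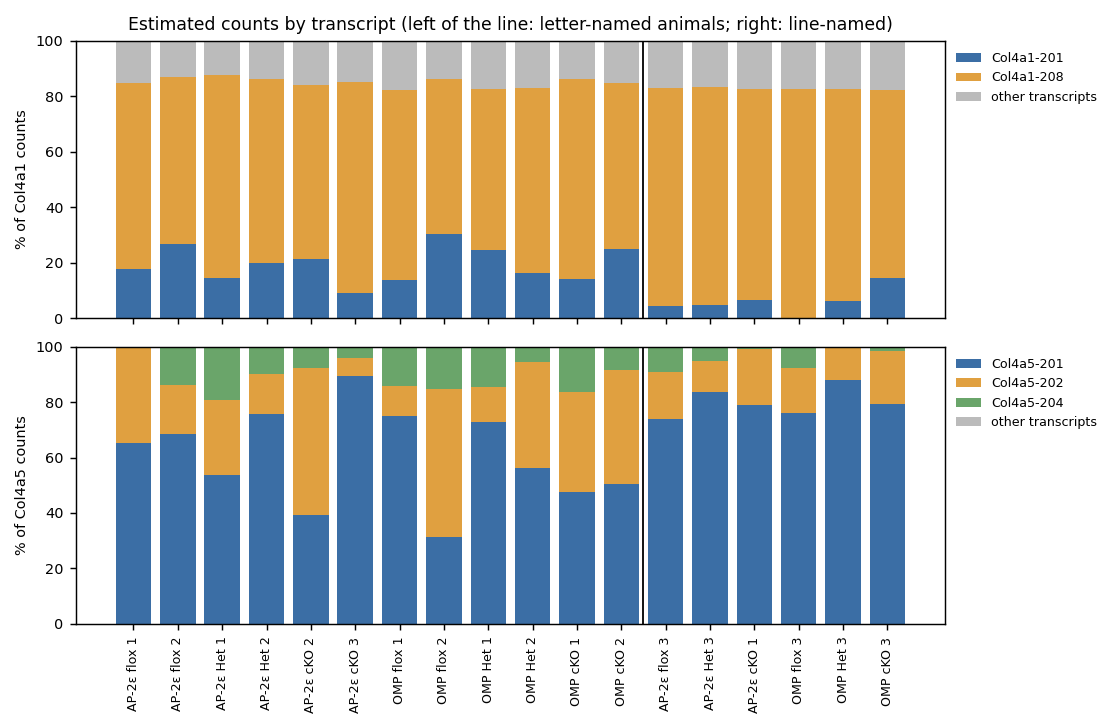
Percent of the estimated counts of Col4a1 (top) and Col4a5 (bottom) given to each transcript in each of 18 libraries, as stacked bars reaching 100%; letter-named animals are left of the line and line-named animals right of it. Col4a1-208 takes 55.9% to 82.7% of Col4a1 in every library, and Col4a1-201 takes 0% to 14.6% on the right.

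The rest of the basement membrane was described through lists of genes. Among 11 laminin chains, the partner network of collagen IV, edgeR called 0 in either cKO comparison. In the AP-2εCre cKO 8 of 11 had a positive log2 fold change (median 0.05, beside 0.00 for all genes tested), with Lama1 at 9.37 ± 1.14 against 6.88 ± 1.57 CPM (0.45 ± 0.20, adjusted p = 0.479) and Lamb3, a chain of epithelial laminin, at 19.3 ± 3.35 against 26.8 ± 6.11 CPM (-0.48 ± 0.20, adjusted p = 0.446). In the OMPCre cKO 9 of 11 were positive with a median of 0.14. The 8 mural markers were all positive there, with a median of 0.14 and 0 called. They summed to 1901 to 3052 CPM in cKO and 1628 to 2609 CPM in controls, ranges that overlap. The part of mural cells in the laminin values was not tested.

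Of 16 other basement membrane components, 0 were called in either line and 12 were positive in each. Col18a1, which encodes the precursor of endostatin, was at 138 ± 32.4 CPM in the AP-2εCre cKO and 94.7 ± 12.1 CPM in controls (0.55 ± 0.15, adjusted p = 0.308). The groups did not overlap, as for 5.06% of all genes (p = 0.012 in the exact permutation test, the smallest allowed, unadjusted). DESeq2 called Col18a1 (adjusted p = 0.0401) among 316 of 25693 genes. It was also called higher in line-named libraries, as given in the closing section. Frem1 (0.38 ± 0.11, adjusted p = 0.317) and Nid2, a nidogen that links laminin to collagen IV (0.28 ± 0.12, adjusted p = 0.479), had the next lowest p. In the OMPCre cKO it was Fras1 (0.34 ± 0.12, adjusted p = 1.0).

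Genes that make and crosslink collagen were not called either. Of 19 biosynthesis genes 13 were positive in the AP-2εCre cKO (median 0.18) and 11 in the OMPCre cKO (median 0.00). P4hb, the disulfide isomerase subunit of prolyl 4-hydroxylase, was at 737 ± 42.99 against 878 ± 55.0 CPM in the AP-2εCre line (-0.25 ± 0.09, adjusted p = 0.383), and the lysyl hydroxylase gene Plod1 at 58.0 ± 8.27 against 49.1 ± 3.32 CPM (0.24 ± 0.10, adjusted p = 0.427). Plod1 in the OMPCre line was at 51.8 ± 5.07 against 45.0 ± 2.57 CPM (0.20 ± 0.08, adjusted p = 1.0). All 6 crosslinking genes were positive in the AP-2εCre cKO (median 0.30), of which Loxl1, a lysyl oxidase, had the lowest p (0.33 ± 0.13, adjusted p = 0.416), while 3 of 6 were positive in the OMPCre cKO (median -0.03). Without loss of Smad4, all 6 were also positive in OMPCre Het against flox (median 0.27). In AP-2εCre Het against flox 4 of 6 were positive (median 0.11).

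Receptors of collagen IV and laminin gave 0 calls of 12 in both lines. Itga6, the α6 subunit of laminin-binding integrins, was at 96.2 ± 4.57 against 113 ± 12.4 CPM in the AP-2εCre line (-0.23 ± 0.10, adjusted p = 0.453) and at 98.2 ± 7.18 against 118 ± 8.50 CPM in the OMPCre line (-0.27 ± 0.08, adjusted p = 1.0). Its partner Itgb4 was at -0.35 ± 0.14 in the AP-2εCre line (adjusted p = 0.429). The markers of basal epithelium, where Lamb3, Itga6 and Itgb4 are known to act, had 0 of 3 positive and 0 called in both lines, with medians of -0.51 in the AP-2εCre and -1.13 in the OMPCre cKO. They summed to 91.8 to 213 CPM in AP-2εCre cKO and 112 to 329 CPM in its controls, and to 124.5 to 136 CPM in OMPCre cKO and 111 to 907 CPM in its controls, and their part in the values of these genes was not tested. The collagen receptor subunits Itga11 (0.47 ± 0.14, adjusted p = 0.317) and Itga2 (0.35 ± 0.14, adjusted p = 0.445) did not pass the test in the AP-2εCre cKO either.

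Of the 10 proteases and inhibitors that act on collagen IV, 9 passed the filter and 0 were called. Mmp9, a gelatinase that cleaves collagen IV, was at 271 ± 39.99 against 203 ± 33.1 CPM in the AP-2εCre cKO (0.42 ± 0.14, adjusted p = 0.368), and Timp4 at 4.58 ± 2.85 against 9.70 ± 1.68 CPM (-1.07 ± 0.37, adjusted p = 0.367). Of the 10 BMP and TGF-β ligands, which include those that bind matrix, 0 were called, 9 were positive in the AP-2εCre cKO (median 0.20) and 8 in the OMPCre cKO (median 0.07). Tgfb1 was at 71.5 ± 13.6 against 53.8 ± 10.2 CPM in the AP-2εCre line (0.41 ± 0.18, adjusted p = 0.457), and Tgfb2 at 55.0 ± 2.65 against 48.4 ± 2.70 CPM in the OMPCre line (0.18 ± 0.07, adjusted p = 1.0). Fibroblast markers summed to 32480 to 40400 CPM in the AP-2εCre cKO and 17240 to 39400 CPM in its controls, with 5 of 6 positive (median 0.24) and 0 called. In Het against flox 6 of 6 were positive in each line, with medians of 0.098 in the AP-2εCre and 0.36 in the OMPCre line. Markers of cartilage and bone summed to 576 to 811 CPM in the AP-2εCre cKO and 281 to 776 CPM in its controls, with 3 of 4 positive (median 0.29) and 0 called. The part of both in the values of the matrix genes was not tested. Of the 83 genes tested in these 7 lists of matrix genes and ligands, 21 (25.3%) had an unadjusted p under 0.05 in the AP-2εCre cKO comparison, beside 10.2% of all genes. In the OMPCre cKO comparison these were 4 of 83 (4.82%), beside 3.95% of all genes. Shares above that of all genes also occurred without loss of Smad4. Between Het and flox they were 10 of 83 (12.05%) in the OMPCre line, beside 5.54% of all genes. In the AP-2εCre line they were 5 of 83 (6.02%), beside 5.18%. Along the form of the animal name they were 22 of 83 (26.5%), where 5370 of 19465 genes had such a p.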

How the data were processed

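Stranded polyA+ libraries of whole VNOs were sequenced as single reads, and the authors quantified them with Salmon 0.14.0 against mouse transcripts (mm10). The submitters' processing notes also name DESeq2 1.22.2. Per the file headers, each deposited table gives an estimated count per transcript, which need not be whole and is not scaled for depth, and a TPM, which the authors' software scales by effective length to a sum of 1000000 per library. Of the 116248 transcripts, 116072 were paired with a gene through GENCODE vM21, and the other 176 held at most 0.0324% of counts. Whether reads in the 22-base overlap of Col4a1 and Col4a2 were assigned by strand is not given in the sources used here.

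Estimated counts were summed per gene and rounded. Each comparison was fitted on its own libraries over all genes that passed filterByExpr, with edgeR 4.0.16 (quasi-likelihood test, TMM, two-sided). Calls were made at 0.05 after adjustment by Benjamini and Hochberg. The design follows the study in comparing cKO with both controls. The script was tested on simulated counts. Single members were also tested by exact two-sided permutation of mean log2(CPM + 0.5). Other tools were limma 3.58.1, DESeq2 1.42.0 and scipy 1.17.1. Alternatives were another tool, scaling, filter, unit, control group, covariate or set of libraries.

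The labels number replicates 1 to 3 in each group. Of 18 pairs of libraries with the same number within a line, 9 had deviations from their group means that correlated above 0.1 (2 of 9 in the AP-2εCre and 7 of 9 in the OMPCre line). As this was not every pair in either line, the numbers were not taken to pair the samples. The 18 pairs of libraries within a group differed by 45.4 to 451 times the sampling noise (chi-square per degree of freedom), so none was a duplicate. The labels call them biological replicates, and nothing ties animals to litters or days. Named genes were all 6 members, the called genes of each list, up to 4 genes a list with the lowest p in a cKO comparison and a mean of at least 1 CPM, defining markers and the 5 genes most like each member. The members, lists and tests were chosen with earlier results of these data known. A library whose title says Het and whose genotype label says cKO was left out of all comparisons. Its values are in the closing section.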

Additional observations from a re-analysis of the deposited data

Results flagged for a closer look

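A library whose title gives AP-2εCre Het and whose genotype label gives cKO entered no comparison, and 2 of its values lay above the AP-2εCre controls. Col4a5 was at 49.7 CPM there, above the 34.1 to 44.0 CPM of the 6 controls and between the lowest and highest cKO libraries (29.0 to 61.9 CPM). Col4a6 was at 21.3 CPM, above the 14.3 to 19.6 CPM of the controls and also between the cKO libraries (14.2 to 30.0 CPM). This animal is line-named, like the AP-2εCre cKO library that is highest in both genes. Its other members were at 336 CPM for Col4a1, 292.5 CPM for Col4a2 and 3.77 CPM for Col4a3, each between the lowest and highest controls. Col4a4 was at 2.97 CPM, below the 3.34 to 4.50 CPM of the controls. It is a single library, and no test was made.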

How the results depend on the processing

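In the 6 comparisons of the design, 0 of 6 collagen IV genes were called under every alternative run. The lowest adjusted p was 0.272, for Col4a2 in the AP-2εCre cKO by limma on log2(TPM + 1). Over these comparisons and that of the animal name, 435 of 480 member fold changes kept their direction and side of the threshold, 35 turned direction and 10 changed call, the last all along the name. Without 1 library each, 408 of 468 kept both, 45 turned and 15 changed call, again all along the name. Where the cause of a change is not given here, the cause was not tested. With 3 libraries a group, and the fewest counts for Col4a3 at 60, Col4a3 had the largest standard error of the 6 members in each of these 6 comparisons. All p-values measure the spread between these libraries.

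In these 6 comparisons DESeq2 called more genes than any other alternative. It called 316 genes in the AP-2εCre cKO comparison, where edgeR called 7, and 46 in the OMPCre cKO, 177 in AP-2εCre Het against flox, 147 in OMPCre Het against flox, 20 for the difference of cKO effects and 144 between the controls of the lines. For the AP-2εCre cKO, length-scaled TPM, the name form as a covariate and letter-named animals alone each gave 2, limma on log2(TPM + 0.1) gave 4, flox controls alone 24, the 3 groups in 1 fit 11 and all 18 libraries in 1 fit 16. In the OMPCre cKO, a minimum of 10 counts in every library gave 2, limma on log2(TPM + 0.1) and the name form as a covariate 1 each, Het controls alone 11, the 3 groups in 1 fit 6 and all 18 libraries 15. AP-2εCre Het against flox gave 8 with a minimum of 1 count, 2 with a minimum of 10 counts, 9 by limma on log2(TPM + 0.1), 9 with 3 groups, 33 with all 18 libraries and 0 in letter-named animals. OMPCre Het against flox gave 1 with a minimum of 10 counts, 3 on length-scaled TPM, 5 by limma on log2(TPM + 1), 14 with 3 groups and 26 in letter-named animals. The difference of cKO effects gave 2 by limma with either pseudocount. Controls of the lines gave 3 with a minimum of 10 counts, 9 by limma on log2(TPM + 1), 4 with flox and 29 with Het controls alone, and 6 in letter-named animals.

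The replicate numbers were not taken to pair the samples, since in neither line did every same-numbered pair of libraries pass the correlation of 0.1 (2 of 9 did in the AP-2εCre and 7 of 9 in the OMPCre line). A block on the number gave 2 calls in the AP-2εCre cKO, 0 in OMPCre Het against flox and 8 between the controls of the lines. It turned Col4a5 in the OMPCre cKO to 0.012 and changed no other direction or call of a member. Same-numbered libraries had a mean correlation of deviations of -0.0776 in the AP-2εCre and 0.207 in the OMPCre line.

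Directions of members turned under several alternatives. By limma on TPM the median of all genes moved by 0.205 and 0.269 in the AP-2εCre cKO comparison (pseudocounts 1 and 0.1) and by -0.236 and -0.294 in the difference of cKO effects. With these pseudocounts, Col4a1 in the OMPCre cKO was at -0.021 and -0.021, and Col4a5 in AP-2εCre Het against flox at 0.031 and 0.042. In OMPCre Het against flox they gave 0.146 and 0.147 for Col4a1, 0.0048 and 0.0050 for Col4a2 and -0.044 and -0.087 for Col4a3. For the difference of cKO effects they gave -0.35 and -0.35 for Col4a2 and -0.071 and -0.15 for Col4a4. Length-scaled TPM gave 0.051 for Col4a5 in AP-2εCre Het against flox, 0.024 for Col4a1, -0.27 for Col4a3 and -0.050 for Col4a5 in OMPCre Het against flox, and -0.097 for Col4a2 in the difference of cKO effects. The name form as a covariate gave 0.018 for Col4a5 in the OMPCre cKO and 0.0048 in the difference of cKO effects. Flox controls alone gave -0.021 for Col4a6 and Het controls alone -0.064 for Col4a3 in the OMPCre cKO.

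Among letter-named animals, an alternative chosen after seeing the data, Col4a5 was at -0.35 and Col4a6 at -0.17 in the AP-2εCre cKO, and Col4a5 at 0.15 in the OMPCre cKO. In AP-2εCre Het against flox they gave -0.12 for Col4a4, 0.14 for Col4a5 and 0.048 for Col4a6. The difference of cKO effects was 0.21 for Col4a1, 0.49 for Col4a5 and 0.43 for Col4a6. Between the controls of the lines Col4a2 was at -0.026 and Col4a5 at -0.022.

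Leaving out 1 library gave 2 to 8 calls in the AP-2εCre cKO. The count fell to 2 without flox replicate 2, Het replicate 2 or 3 or cKO replicate 1 or 3, and to 3 without flox replicate 3. The OMPCre cKO gave 0 to 2, with 2 only without flox replicate 2. AP-2εCre Het against flox gave 3 to 28, with 17, 28 and 10 without Het replicate 1, 2 and 3. OMPCre Het against flox gave 0 to 15, with 15 without flox replicate 3, 0 without Het replicate 3, 2 without flox replicate 2, and 1 without flox replicate 1 or Het replicate 1 or 2. The difference of cKO effects gave 0 to 1, with 1 without OMPCre flox replicate 1 or cKO replicate 1. Controls of the lines gave 4 to 25. They gave 8 and 4 without AP-2εCre flox replicate 1 and 3, 7 and 10 without AP-2εCre Het replicate 1 and 2, 10 without OMPCre flox replicate 1, and 5 and 6 without OMPCre Het replicate 1 and 2.

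Without 1 library, log2 fold changes crossed 0 for these members. In the AP-2εCre cKO Col4a5 ran from -0.37 to 0.27 and Col4a6 from -0.16 to 0.44. In the OMPCre cKO Col4a1 ran from -0.066 to 0.20, Col4a5 from -0.14 to 0.11 and Col4a6 from -0.057 to 0.20. In AP-2εCre Het against flox Col4a4 ran from -0.069 to 0.15 and Col4a5 from -0.11 to 0.077. OMPCre Het against flox gave -0.28 to 0.12 for Col4a1, -0.38 to 0.060 for Col4a2, -0.072 to 0.15 for Col4a4, -0.27 to 0.30 for Col4a5 and -0.44 to 0.19 for Col4a6. The difference of cKO effects gave -0.22 to 0.055 for Col4a1, -0.092 to 0.16 for Col4a2, -0.32 to 0.43 for Col4a4, -0.29 to 0.34 for Col4a5 and -0.38 to 0.21 for Col4a6. Between the controls of the lines Col4a4 ran from -0.029 to 0.075.

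Between line-named and letter-named animals, where 2357 genes and 2 members were called, length-scaled TPM called 4 members and limma on log2(TPM + 1) called 8405 genes and 5 members. The AP-2εCre line alone gave 30 genes and 0 members, and the controls alone 308 genes and 0 members. Without 1 library the counts were 1264 to 3058 genes and 0 to 3 members, with 1366, 1458, 1476 and 1264 genes without AP-2εCre cKO replicate 1 and OMPCre flox, Het and cKO replicate 3, all line-named.

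Other matrix genes and Smad4 in the AP-2εCre cKO turned as follows. Nid2 was at -0.035 on length-scaled TPM. By limma on TPM with pseudocounts 1 and 0.1, P4hb was at 0.0337 and 0.0338, Itga6 at 0.163 and 0.166, and Smad4 at 0.230 and 0.234. Smad4 was at 0.020 with Het controls alone and ran from -0.25 to 0.17 without 1 library. Over all 18 libraries Col4a4 minus Col4a3 was -0.060 on the log2 TPM scale. The correlation of Col4a3 with Col4a4 was 0.43 among letter-named and 0.85 among line-named libraries and 0.27 in the OMPCre line, and that of Col4a5 with Col4a6 was 0.98 among line-named libraries, none of them passing adjustment over the 15 pairs (permutation test).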

Other observations

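Other basement membrane genes were read between line-named and letter-named animals, a comparison chosen after seeing the data in which edgeR called 12.1% of 19465 genes, 4.73% higher and 7.38% lower in line-named libraries. Of the 83 genes tested in the 7 lists of matrix genes and ligands 9 were called (10.8%), a share near that of all genes. Of 11 laminin chains 2 were called, both higher in line-named libraries, Lama5 (log2 fold change 0.39 ± 0.08 SE, adjusted p = 0.0059) and Lamb2 (0.28 ± 0.06, adjusted p = 0.0117), which encode chains of vessel and other mature basement membranes. Of 16 other components 3 were called, also higher. These were Agrn, a heparan sulfate proteoglycan (0.31 ± 0.05, adjusted p = 0.00084), Col18a1 (0.48 ± 0.10, adjusted p = 0.0098) and Frem1 (0.40 ± 0.10, adjusted p = 0.0156). Of 19 biosynthesis genes 3 were called and lower, Mia2 (-0.25), Ppib (-0.28) and Crtap (-0.36), of which the last 2 act in the prolyl 3-hydroxylation and folding of procollagen. Of 10 ligands 1 was called, Tgfb1 (-0.34). Among the 6 crosslinking genes, the 12 receptors and the 9 proteases and inhibitors tested 0 were called.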
